A study of Homo sapiens with 4 samples.

Results

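The genes described are the matrix metalloproteases (MMPs), the ADAMTS proteases and the tissue inhibitors of metalloproteases (TIMPs), in a comparison of cisplatin-resistant SKOV3 cells with the wild-type SKOV3 cells they came from. Members were taken by symbol, as every gene named MMP or ADAMTS plus a number or TIMP plus a digit, which gave 45 genes among 65988 rows of the count table. These were 22 MMPs, 19 ADAMTS genes and 4 TIMPs. Another 3 rows repeat a member's symbol under an identifier outside the primary assembly, and held 0 reads.

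SKOV3 is an established human ovarian carcinoma line. The resistant cells (SKOV3 CR) went through 6 cycles over 5 months, each with 4 hours of cisplatin, at a concentration raised from cycle to cycle, and then 3 weeks without it. Resistant and wild-type (SKOV3 WT) cells were both harvested untreated in log growth, with 2 libraries of polyadenylated RNA each. The labels describe a single selected line and name no line kept as long without drug, so resistance and drift of the line cannot be told apart.

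Metalloproteases use a zinc ion to cut proteins of the extracellular matrix and of the cell surface. Most MMPs are made as inactive precursors held shut by a propeptide, some stay anchored in the membrane, and TIMPs bind the active site and block it. ADAMTS enzymes are secreted relatives that carry thrombospondin repeats and cut proteoglycans, procollagens and other matrix proteins. In ovarian carcinoma these enzymes are known for their part in the spread of cells through the peritoneal lining.

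Library totals ranged from 65259794 to 79592903 counts in resistant cells and from 43658695 to 53502349 in wild-type cells. Levels are given in CPM (the usual library-scaled counts, with TMM factors), where 1 CPM stood for 42.6 to 83.1 reads. Genes are compared with each other only per length, in FPKM (CPM per kilobase of merged exons). Changes are log2 of resistant over wild-type ± SE, and genes were called at an adjusted p under 0.05 in edgeR's quasi-likelihood test across all 18602 tested genes. Of 9 genes fixed as markers of the line, all were tested, and 6 were called lower (CDH1, KRT18, EPCAM, ERBB2, KRT8 and MUC16) and 1 higher, the Wilms tumor gene. KRT19 and PAX8 were not called. Their summed level, over all 9 markers, was 3481 and 2827 CPM in resistant replicates 1 and 2, against 6263 and 6855 CPM in wild-type replicates 1 and 2. ERBB2 alone made up most of each sum. It was at 2840.5 and 2073.9 CPM in resistant libraries, against 5248.1 and 5769 CPM in wild-type libraries.

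The proteases moved in both directions, and the leading MMP was a different gene in each group. The gelatinase MMP2 was 16.5 times as high in resistant cells by the fit, while the matrilysin MMP7 was 20.0 times as high in wild-type cells. Of the 29 members tested, 8 were called higher and 11 lower, or 65.5% in all, where 45.3% of all tested genes were called, 22.1% higher and 23.2% lower. Changes of at least 4-fold were called for 9 members, or 31.0% of those tested, against 9.02% of all genes. The median absolute log2 change was 1.37 over the tested members and 0.51 over all tested genes. Both resistant libraries lay above both wild-type libraries in 10 tested members and below both in 16, and in 3 the groups overlapped. Over all tested genes, 37.2% lay above and 36.4% below in this way, so groups without overlap were common. The members were chosen with earlier results of these data known, so these shares are descriptions. They include ADAMTS10 and MMP11, which were under the low-count filter level of 0.168 CPM in at least 1 resistant library. Both passed the filter through their wild-type libraries, so their calls are no support for these shares.

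**Figure D1:**
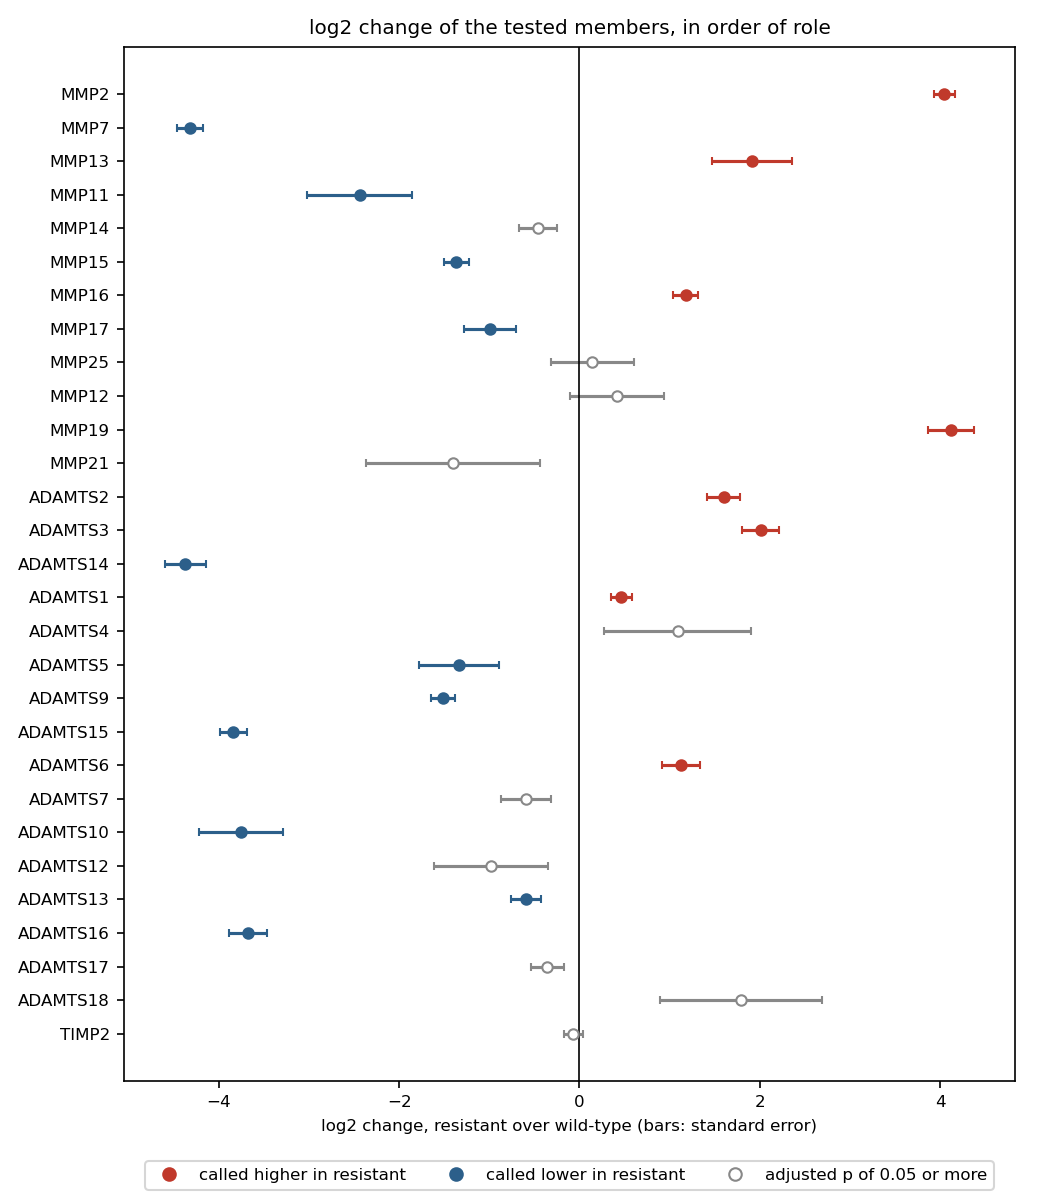
The log2 change (resistant over wild-type) of each of the 29 tested members, with bars of 1 standard error and members in order of role. Filled points passed an adjusted p of 0.05 in edgeR's quasi-likelihood test, 8 to the right of 0 and 11 to the left, with MMP2 and MMP19 farthest right and ADAMTS14 and MMP7 farthest left.

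Of the gelatinases, which cut denatured collagen and the type IV collagen of basement membranes, MMP2 was the abundant one. MMP2 (chromosome 16, 55389700 to 55506691, plus strand, GRCh38) was at 654 and 637 CPM in resistant replicates 1 and 2, against 39.4 and 38.6 CPM in wild-type replicates 1 and 2. The groups lay far apart and the replicates close together. The log2 change was 4.05 ± 0.12, with an edgeR adjusted p of 1.85e-09. Its relative MMP9 was nearly absent, with 0 and 11 reads in resistant libraries and 1 and 0 reads in wild-type libraries, and was not tested.

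MMP2 is also a gene of fibroblasts, so a list of 10 fibroblast markers was read beside it. In this list 4 were higher in resistant cells (DCN, LUM, POSTN and COL1A1), 1 was lower (COL1A2), and THY1, whose exons lie wholly under other genes, was listed at 0. FAP, PDGFRA and COL3A1 were not called, and PDGFRB was not tested. The summed fibroblast level was 64.4 and 56.4 CPM in resistant libraries, against 28.0 and 37.6 CPM in wild-type libraries. Most of this gap came from DCN alone. It was at 31.6 and 21.9 CPM in resistant libraries, against 0.0939 and 0.0195 CPM in wild-type libraries. Of the 8 fibroblast markers tested, 4 were called higher and 1 lower, where 22.1% of all tested genes were called higher and 23.2% lower. Genes of the list moved in both directions, so its sum does not describe each of them. The part of other cells in the change of MMP2 was not tested, and in bulk RNA a different share of cells and a different amount of RNA per cell cannot be told apart. Other cell type lists also held called genes. Of 5 endothelial markers, PECAM1 and VWF were called lower, KDR and TEK were not called, and CDH5 was not tested. The list summed to 1.86 and 2.07 CPM in resistant libraries, against 11.6 and 9.95 CPM in wild-type libraries. Most of that gap came from PECAM1, at 0.765 and 0.854 CPM in resistant libraries, against 10.2 and 7.65 CPM in wild-type libraries. Of 4 mesothelial markers, MSLN was called higher, CALB2 and UPK3B were called lower, and LRRN4 was not called. Together they summed to 31.4 and 36.3 CPM in resistant libraries, against 50.6 and 68.4 CPM in wild-type libraries. The lower sum in resistant libraries came from UPK3B, at 2.79 and 2.79 CPM there, against 31.3 and 42.4 CPM in wild-type libraries. MSLN was at 25.0 and 30.6 CPM in resistant libraries, against 14.6 and 21.1 CPM in wild-type libraries. The 7 leukocyte markers summed to at most 1.61 CPM in any of the 4 libraries, and edgeR called none of the 2 that could be tested. Among the called markers of the line and of these cell types, MUC16, DCN and VWF fell under the low-count filter level of 0.168 CPM. This was so in at least 1 library of their lower group, and they passed the filter through the other group. CALB2, with 11 and 16 reads in resistant libraries, was close to that level. The part of these lists in the results was not tested.

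MMP7 is a small epithelial protease, known for lacking the hemopexin domain that most MMPs carry, and it behaved in the opposite way. MMP7 (chromosome 11, 102520508 to 102530753, minus strand) was at 8.84 and 7.25 CPM in resistant libraries, against 168 and 153 CPM in wild-type libraries. No resistant library came near the wild-type range. The log2 change was -4.32 ± 0.15 (edgeR adjusted p = 4.25e-09). The other matrilysin, MMP26, had 0 and 0 reads in resistant libraries and 0 and 3 reads in wild-type libraries.

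**Figure D2:**
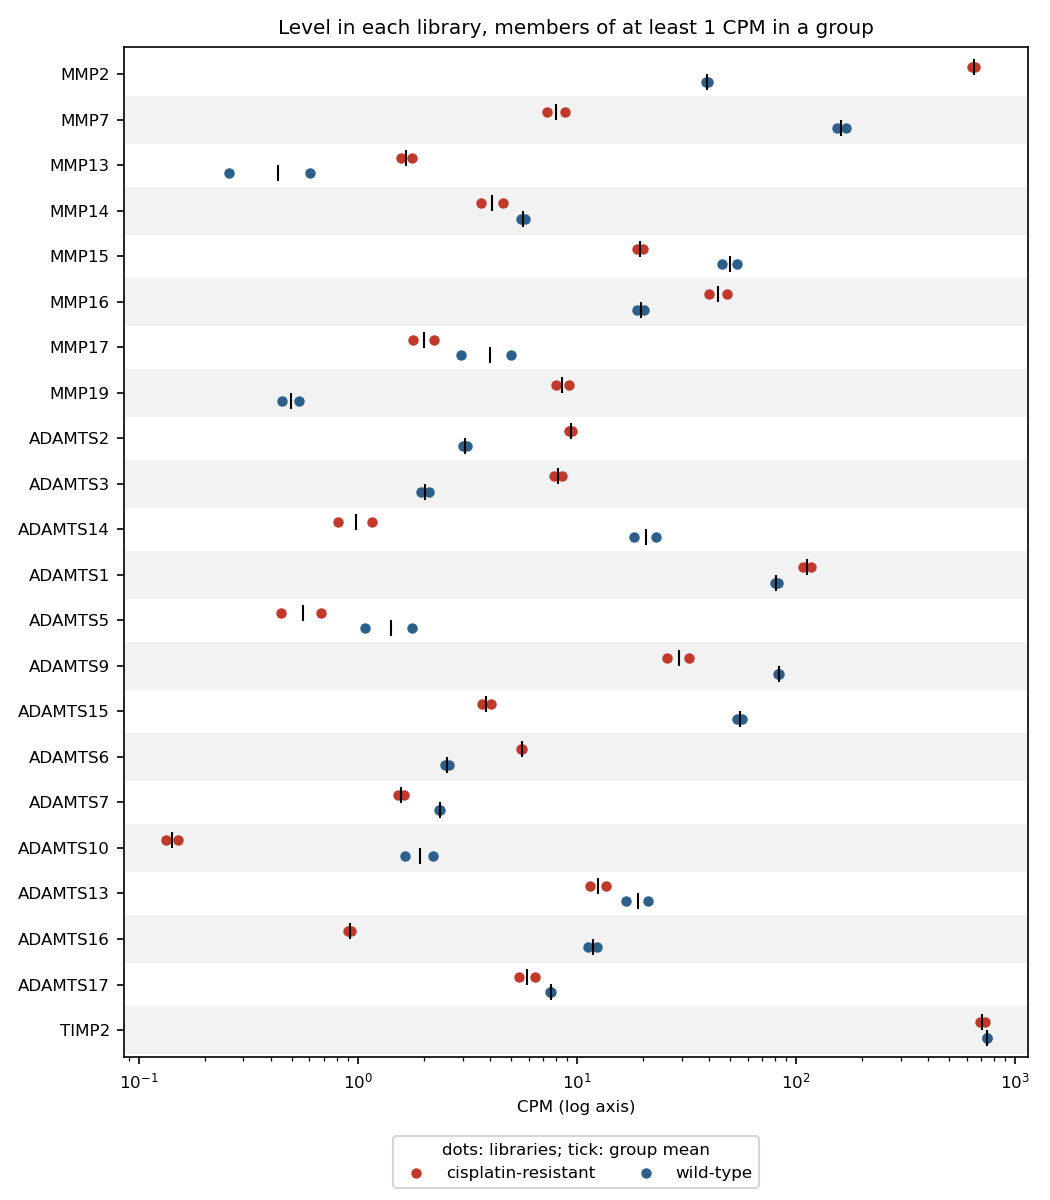
CPM on a log axis in each library for the 22 members of at least 1 CPM in a group, in order of role, with resistant libraries above wild-type libraries in each row. Dots are libraries and ticks are group means. MMP2 and MMP7 change places, with MMP2 averaging 646 CPM and MMP7 8.04 CPM in resistant cells, while the dots of TIMP2 all lie between 690.2 and 742 CPM.

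The proximal promoter of MMP7 is a textbook example of an inducible MMP promoter, with a TATA box and a site for AP-1, the dimer of FOS and JUN family proteins. It is shown beside that of MMP10, a stromelysin of the same gene cluster, and those of ADAMTS2 and ADAMTS14, a pair with the same substrate that changed in opposite directions. Each line runs from 120 to 11 bases before the RefSeq start, 5′ to 3′ on the gene's strand, from RefSeq on GRCh38.p14, at chr11:102530758-102530867, chr11:102780639-102780748, chr5:179345472-179345581 and chr10:70672386-70672495 in that order. Capitals mark the AP-1 motif, spelled TGANTCA, and the motif of the TATA box, spelled TATAAA, both searched on either strand.
MMP7: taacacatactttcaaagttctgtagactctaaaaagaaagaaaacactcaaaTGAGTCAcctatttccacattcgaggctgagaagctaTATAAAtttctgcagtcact
MMP10: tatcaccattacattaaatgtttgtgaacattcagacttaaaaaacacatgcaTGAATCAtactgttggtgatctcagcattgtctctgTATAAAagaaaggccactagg
ADAMTS2: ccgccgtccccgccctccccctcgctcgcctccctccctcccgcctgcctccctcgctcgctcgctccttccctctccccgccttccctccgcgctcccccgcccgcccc
ADAMTS14: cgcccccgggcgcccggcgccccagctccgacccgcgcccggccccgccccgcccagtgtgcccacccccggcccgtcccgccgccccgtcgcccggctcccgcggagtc

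In both MMP promoters the AP-1 letters begin 67 bases before the start, and the TATA letters begin 30 bases before it in MMP7 and 31 bases before it in MMP10. Bases G and C make up 34.5% of each MMP stretch, against 80.9% for ADAMTS2 and 89.1% for ADAMTS14, where neither motif occurs. Windows of 300 bases were at hand for 26 members, ADAMTS10 with a pair of them, so 27 windows. None was at hand for MMP2, MMP13, MMP16 or MMP19, the MMPs that were called higher. The AP-1 letters were in 4 of the 27 (MMP7, MMP10, MMP20 and ADAMTS12), or 14.8%, against 7.71% of all 35116 promoter windows. The TATA letters were in 7, or 25.9%, against 11.5% of all. Among the 9 called members with a window, only MMP7 had the AP-1 letters, and only MMP7 and ADAMTS10 had the TATA letters. Of the other members with the AP-1 letters, ADAMTS12 was not called, and MMP10 and MMP20 were not measured. The part of these letters in the changes was not tested. A match describes the letters and does not show a bound site.

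The collagenase MMP13, which cuts fibrillar collagen, was low in all libraries. MMP13 was at 1.76 and 1.56 CPM in resistant libraries, against 0.258 and 0.604 CPM in wild-type libraries. Both resistant libraries were above both wild-type libraries, as in 37.2% of all tested genes. The log2 change was 1.92 ± 0.44 (edgeR adjusted p = 0.0047). The wild-type replicates held 11 and 31 reads, and the log2 change of MMP13 was 1.46 without wild-type replicate 1 and 2.68 without wild-type replicate 2. The neutrophil collagenase MMP8 had 2 and 0 reads in resistant libraries and none in wild-type libraries.

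Among stromelysins, MMP11, which furin activates before secretion, was at 0.180 and 0.144 CPM in resistant libraries, against 1.03 and 0.740 CPM in wild-type libraries. It was called lower, by -2.44 ± 0.58 on the log2 scale (edgeR adjusted p = 0.00552). The fit rests on 12 and 12 reads in resistant libraries and 44 and 38 reads in wild-type libraries. Resistant replicate 2 was under the filter level of 0.168 CPM, and MMP11 passed the filter through its wild-type libraries. MMP3 had 1 and 1 reads in resistant libraries and 0 and 4 in wild-type libraries.

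The membrane-type MMPs did not move together: of 5 tested, 1 rose and 2 fell. Of all tested genes, 22.1% were called higher and 23.2% lower, and 5 genes are too few to set against these shares. MMP16, a transmembrane protease, was at 48.1 and 40.1 CPM in resistant libraries, against 18.9 and 20.1 CPM in wild-type libraries. MMP15, a close relative with the same membrane anchor, was at 18.7 and 19.9 CPM in resistant libraries, against 45.9 and 53.8 CPM in wild-type libraries. For both genes the groups did not overlap, where 37.2% of all tested genes lay wholly above and 36.4% wholly below. The log2 change was 1.18 ± 0.14 for MMP16 (edgeR adjusted p = 5.81e-05) and -1.37 ± 0.14 for MMP15 (edgeR adjusted p = 1.41e-05).

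MMP14, the main cell-surface activator of the MMP2 precursor, was at 3.63 and 4.58 CPM in resistant libraries, against 5.52 and 5.79 CPM in wild-type libraries. Its log2 change of -0.46 ± 0.21 did not pass the test (edgeR adjusted p = 0.0944), and was -0.63 with an edgeR adjusted p of 0.0449 without resistant replicate 2. The lipid-anchored MMP17 was at 1.79 and 2.23 CPM in resistant libraries, against 2.96 and 5.01 CPM in wild-type libraries. The wild-type replicates of MMP17 differed from each other by as much as the group means did. Its log2 change was -0.99 ± 0.29 (edgeR adjusted p = 0.0168), and -0.55 with an edgeR adjusted p of 0.205 without wild-type replicate 2. MMP25, the other lipid-anchored member, was at 1.10 and 0.625 CPM in resistant libraries and 0.892 and 0.662 CPM in wild-type libraries, which overlap, and 67.1% of its exon bases lie under other genes.

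Of the remaining MMPs, MMP19, a secreted protease that cuts basement membrane proteins, showed the largest fitted rise of any tested member. MMP19 (chromosome 12, 55835433 to 55842966, minus strand) was at 7.97 and 9.18 CPM in resistant libraries, against 0.540 and 0.448 CPM in wild-type libraries. That is 531 and 763 reads in resistant libraries, against 23 and 23 reads in wild-type libraries. The log2 change was 4.12 ± 0.26 (edgeR adjusted p = 3.46e-07). The macrophage elastase MMP12 was at 0.555 and 0.625 CPM in resistant libraries and 0.540 and 0.351 CPM in wild-type libraries, and its log2 change of 0.42 ± 0.52 was not called (edgeR adjusted p = 0.552). MMP21 had 26 and 3 reads in resistant libraries and 8 and 46 in wild-type libraries, so its groups overlap and its replicates lie far apart. Its log2 change of -1.40 ± 0.96 was not called (edgeR adjusted p = 0.262). It was -2.10 without wild-type replicate 1 (edgeR adjusted p = 0.0119), -3.84 without resistant replicate 1 (edgeR adjusted p = 0.0367) and 0.15 without wild-type replicate 2 (edgeR adjusted p = 0.935).

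Per length, the make-up of the family changed while its sum rose less. The summed MMP level was 149 and 145 FPKM in resistant libraries, against 95.4 and 91.3 FPKM in wild-type libraries. MMP2 made up 89.0% and 89.2% of that sum in resistant libraries, against 8.38% and 8.58% in wild-type libraries. MMP7 made up 2.55% and 2.16% in resistant libraries, against 76.0% and 72.0% in wild-type libraries. MMP15 was the second MMP of all 4 libraries, at 2.84% and 3.12% in resistant libraries and 10.9% and 13.3% in wild-type libraries. Members not measured are missing from these sums, and a share falls when another member rises.

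**Figure D3:**
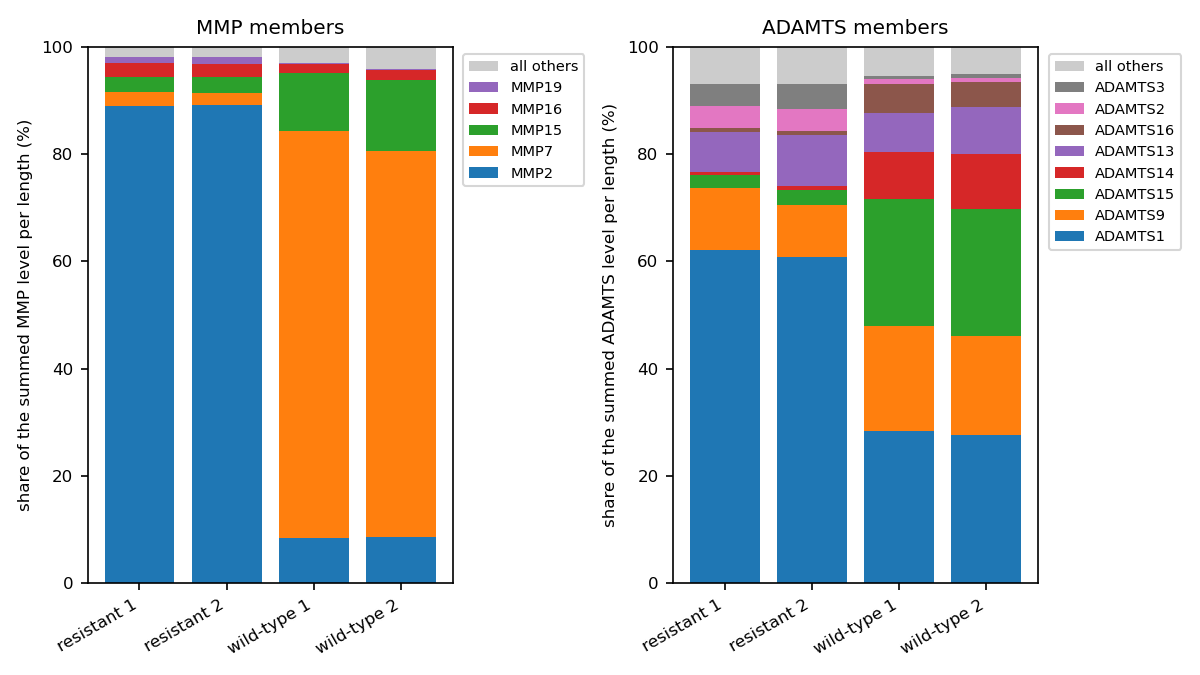
Stacked bars of each library's summed FPKM, as a percentage per gene, for the MMPs at the left and the ADAMTS genes at the right, resistant libraries before wild-type libraries. MMP2 fills 89.0% and 89.2% of the MMP bars in resistant libraries and MMP7 fills 76.0% and 72.0% in wild-type libraries, while ADAMTS1 leads the ADAMTS bars in all 4.

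The procollagen N-proteinases, which trim the amino-terminal propeptide of fibrillar procollagens, split between a pair that rose and one that fell. ADAMTS2 (chromosome 5, 179110851 to 179345430, minus strand) was at 9.51 and 9.16 CPM in resistant libraries, against 3.15 and 3.02 CPM in wild-type libraries. ADAMTS3, which is also known to process the lymphatic growth factor VEGFC, was at 7.80 and 8.53 CPM in resistant libraries, against 2.11 and 1.95 CPM in wild-type libraries. Both genes were higher in each resistant library, as were 37.2% of all tested genes. The log2 change was 1.60 ± 0.19 for ADAMTS2 (edgeR adjusted p = 4.75e-05) and 2.01 ± 0.21 for ADAMTS3 (edgeR adjusted p = 1.74e-05).

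ADAMTS14 (chromosome 10, 70672803 to 70762441, plus strand) was at 0.810 and 1.15 CPM in resistant libraries, against 18.2 and 22.8 CPM in wild-type libraries. It had the largest fitted fall of any tested member, -4.37 ± 0.23 on the log2 scale (edgeR adjusted p = 8.27e-08). Per length, ADAMTS14 averaged 0.186 FPKM in resistant cells and 3.89 FPKM in wild-type cells. In resistant cells it was the lowest of these proteinases, below ADAMTS3 at 1.14 and ADAMTS2 at 1.07 FPKM. In wild-type cells it was the highest, above ADAMTS2 at 0.353 and ADAMTS3 at 0.283 FPKM.

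Proteoglycanases of the ADAMTS family cut versican and aggrecan, the large chondroitin sulfate proteoglycans. Of 5 tested, 1 rose and 3 fell, where 22.1% of all tested genes rose and 23.2% fell. ADAMTS1 was at 116 and 108 CPM in resistant libraries, against 79.8 and 82.4 CPM in wild-type libraries. Its rise was small, at 0.47 ± 0.11 on the log2 scale (edgeR adjusted p = 0.0057), and the log2 change of ADAMTS1 was 0.45 with an edgeR adjusted p of 0.0546 without wild-type replicate 1.

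ADAMTS15 (chromosome 11, 130448974 to 130476641, plus strand) was at 3.66 and 4.03 CPM in resistant libraries, against 53.8 and 56.6 CPM in wild-type libraries. ADAMTS9 was at 32.4 and 25.7 CPM in resistant libraries, against 83.0 and 83.1 CPM in wild-type libraries. Both fell with no overlap between groups, where 36.4% of all tested genes lay wholly below. The log2 change was -3.84 ± 0.15 for ADAMTS15 (edgeR adjusted p = 1e-08) and -1.51 ± 0.14 for ADAMTS9 (edgeR adjusted p = 6.49e-06). In the exons of ADAMTS9, 11.2% of the bases lie under its antisense genes. Per length, the ratio of ADAMTS1 to ADAMTS15 was 25.5 and 21.5 in resistant libraries, against 1.19 and 1.17 in wild-type libraries.

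ADAMTS5, a major aggrecanase of cartilage, was low, at 0.675 and 0.445 CPM in resistant libraries, against 1.76 and 1.07 CPM in wild-type libraries. Its log2 change of -1.34 ± 0.44 was called (edgeR adjusted p = 0.0282), but was -0.93 without wild-type replicate 1 (edgeR adjusted p = 0.164) and -1.05 without resistant replicate 2 (edgeR adjusted p = 0.135). In ADAMTS5, 83.1% of the exon bases lie under other genes, so its level is uncertain. ADAMTS4, the other classical aggrecanase, had 15 and 36 reads in resistant libraries and 2 and 13 in wild-type libraries, and was not called (log2 change 1.09 ± 0.82, edgeR adjusted p = 0.303). ADAMTS8 had 2 and 2 reads in resistant libraries and 9 and 6 in wild-type libraries, and ADAMTS20 had 9 and 4 in resistant libraries and 1 and 4 in wild-type libraries.

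Of the other ADAMTS genes, 8 were tested, of which 1 rose and 3 fell, where 22.1% of all tested genes rose and 23.2% fell. ADAMTS16 was at 0.930 and 0.902 CPM in resistant libraries, against 12.3 and 11.2 CPM in wild-type libraries, a log2 change of -3.68 ± 0.21 (edgeR adjusted p = 1.61e-07). Its closest relative ADAMTS18 had 16 and 17 reads in resistant libraries and 1 and 5 in wild-type libraries, with 55.2% of its exon bases under other genes, and its log2 change of 1.79 ± 0.90 did not pass (edgeR adjusted p = 0.128). Another pair of close relatives is ADAMTS6 and ADAMTS10, of which ADAMTS10 is known for binding fibrillin. ADAMTS6 was at 5.61 and 5.57 CPM in resistant libraries, against 2.49 and 2.61 CPM in wild-type libraries. ADAMTS10 was at 0.150 and 0.132 CPM in resistant libraries, against 1.64 and 2.20 CPM in wild-type libraries. ADAMTS6 rose by 1.13 ± 0.21 on the log2 scale (edgeR adjusted p = 0.00127), and ADAMTS10 had a log2 change of -3.76 ± 0.46. Both resistant libraries of ADAMTS10 were under the filter level of 0.168 CPM, so it was tested only through its wild-type libraries. Its call is no support for the share that fell.

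ADAMTS13, the plasma enzyme that cuts von Willebrand factor, was at 11.4 and 13.6 CPM in resistant libraries, against 16.7 and 21.1 CPM in wild-type libraries. Its log2 change was -0.59 ± 0.17 (edgeR adjusted p = 0.0146), and -0.41 without wild-type replicate 2 (edgeR adjusted p = 0.163). ADAMTS17, linked like ADAMTS10 to a short stature syndrome, was at 6.39 and 5.44 CPM in resistant libraries, against 7.54 and 7.60 CPM in wild-type libraries, and was not called (log2 change -0.36 ± 0.18, edgeR adjusted p = 0.134). ADAMTS7 and ADAMTS12 are known to cut the cartilage protein COMP. ADAMTS7 was at 1.62 and 1.52 CPM in resistant libraries, against 2.35 and 2.38 CPM in wild-type libraries (log2 change -0.59 ± 0.28, edgeR adjusted p = 0.106). ADAMTS12 had 13 and 30 reads in resistant libraries and 30 and 21 in wild-type libraries (log2 change -0.98 ± 0.63, edgeR adjusted p = 0.232).

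Summed per length, the ADAMTS level was 26.5 and 25.1 FPKM in resistant libraries, against 39.8 and 42.1 FPKM in wild-type libraries. ADAMTS1 made up 62.2% and 60.8% of it in resistant libraries, against 28.4% and 27.7% in wild-type libraries. ADAMTS15 ranked next in wild-type libraries, at 23.8% and 23.7%, and ADAMTS9 ranked next in resistant libraries, at 11.5% and 9.61%.

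Of the TIMPs, which inhibit these proteases, only TIMP2 was measured. TIMP2, which blocks MMPs and also bridges MMP14 and the MMP2 precursor, was at 724 and 690.2 CPM in resistant libraries, against 739.5 and 742 CPM in wild-type libraries. Its log2 change was -0.07 ± 0.11 (edgeR adjusted p = 0.637), and 0.03 where library totals alone set the scale. Per length, the ratio of MMP2 to TIMP2 was 1.03 and 1.05 in resistant libraries, against 0.0609 and 0.0594 in wild-type libraries. The ratio of MMP7 to TIMP2 was 0.0296 and 0.0255 in resistant libraries, against 0.552 and 0.499 in wild-type libraries. RNA ratios do not give amounts of protein.

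The other TIMPs and several MMPs were listed at 0 in every library and are treated as not measured. These 8 members are TIMP1, TIMP3, TIMP4, MMP1, MMP10, MMP20, MMP24 and MMP28. In 7 of them every exon base lies under another gene of GENCODE release 29, and in MMP20 42.8% do. None of the 37 measured members is wholly covered, though some are covered more than MMP20, such as ADAMTS19 at 87.9% and ADAMTS5 at 83.1%. Wholly covered genes outside the members went both ways. TFPI2, FOSB, JUNB and KLK7 were at 0, while TNC and ETV4 had reads. TNC had 2806 and 2674 reads in resistant libraries and 1209 and 1531 in wild-type libraries. The part of cover in these 0 counts was not tested. TIMP1, TIMP3 and TIMP4 each lie inside a synapsin gene on the opposite strand, namely SYN1, SYN3 and SYN2. Those host genes had 12 and 20, 16 and 17, and 1031 and 1282 reads in resistant libraries, against 13 and 16, 63 and 23, and 827 and 1038 reads in wild-type libraries. MMP1 and MMP10 lie inside the pseudogene WTAPP1, with 67 and 111 reads in resistant libraries and 24 and 53 in wild-type libraries. The kit preserved strand per the labels' protocols, while no source used here gives the counting settings, so a 0 for these members does not show that they were silent.

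**Figure D4:**
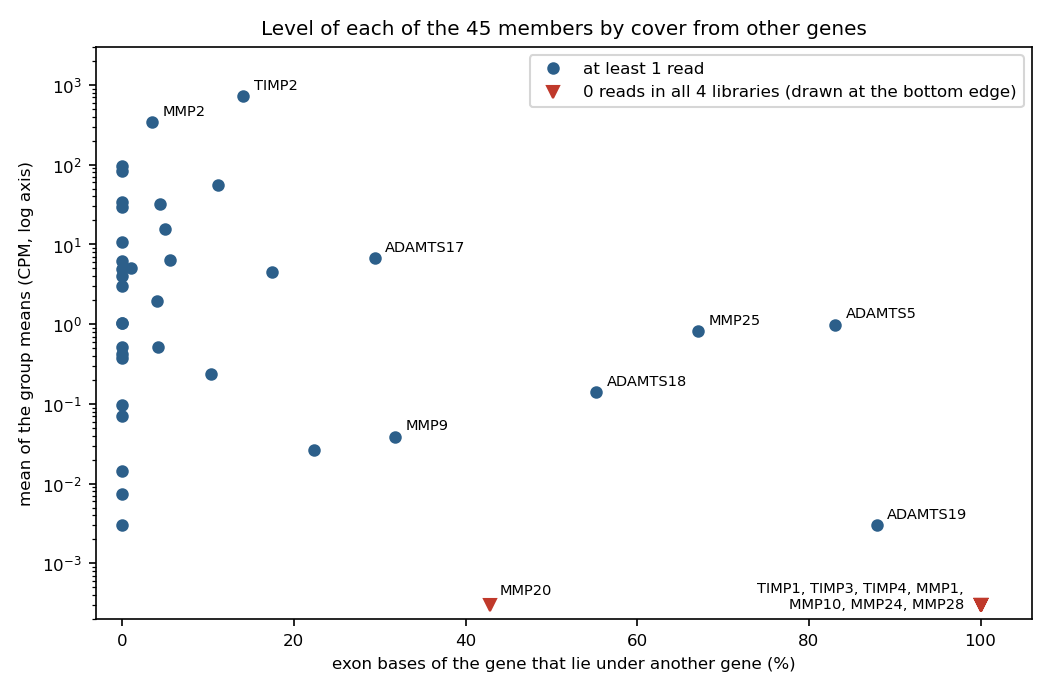
Share of each member's exon bases that lie under another gene (horizontal axis, %) against the mean of its group means (vertical axis, CPM, log scale), 1 point for each of the 45 members. The 8 members with 0 reads are triangles at the bottom edge, 7 of them at 100% cover, while TIMP2 at 14.1% and MMP2 at 3.5% are the highest points.

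In all, 37 members had reads and 29 passed the low-count filter. The 8 that had reads but did not pass (ADAMTS8, ADAMTS19, ADAMTS20, MMP3, MMP8, MMP9, MMP26 and MMP27) held between 1 and 19 reads over the 4 libraries. Of the 29 that passed, 5 were under the filter level of 0.168 CPM in at least 1 library of a group. They include the called genes ADAMTS10 and MMP11, which passed through their wild-type libraries, so their calls are no support for the shares of members called.

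A run of MMP genes lies together on chromosome 11, in the order MMP7, MMP20, MMP27, MMP8, MMP10, MMP1, MMP3, MMP12 and MMP13. Only MMP7 was above 1 CPM in wild-type cells, and it fell, while MMP13 at the far end rose. Of the flanking genes, YAP1, BIRC3, TMEM123 and DYNC2H1 were called lower and PDGFD higher. BIRC2, DCUN1D5 and TMEM133 were not called, nor was WTAPP1 within the run. Of all tested genes, 22.1% were called higher and 23.2% lower, and these flanking genes are too few to set against such shares. The called falls of the flanks were smaller than that of MMP7, at -0.75 ± 0.12 for the transcriptional coactivator YAP1 and -1.58 ± 0.16 for the apoptosis inhibitor BIRC3, both on the log2 scale. Copy number of this stretch was not measured.

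**Figure D5:**
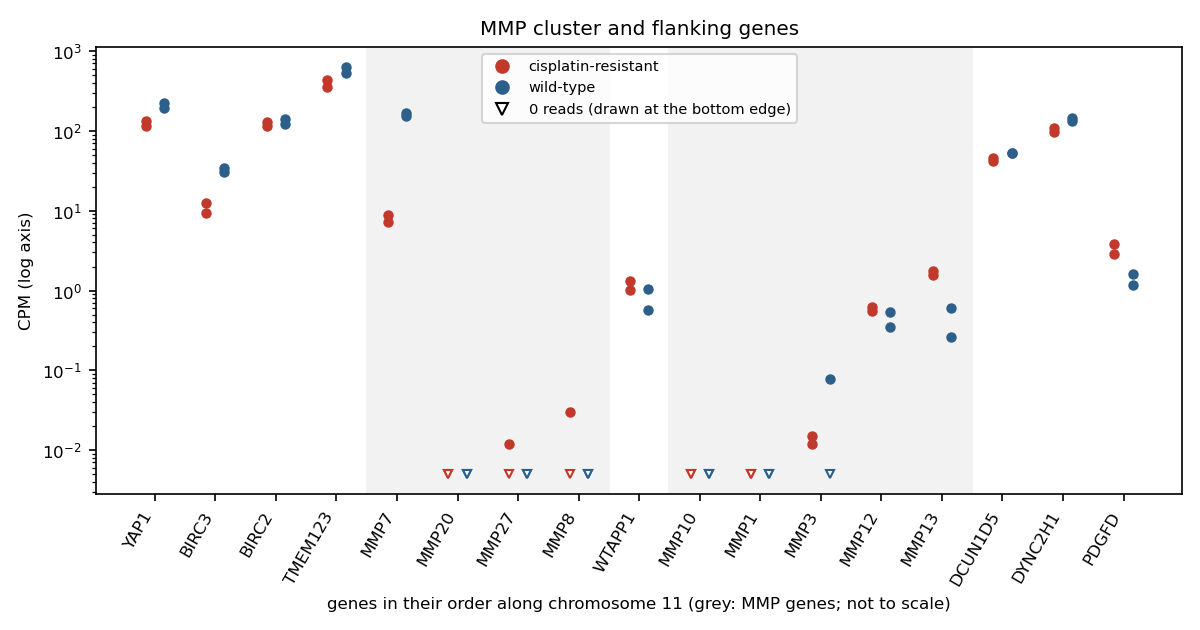
CPM on a log axis in each library for the genes of the MMP run on chromosome 11 (grey) and its flanking genes, in chromosome order and not to scale, with resistant libraries left of wild-type libraries and genes at 0 as open triangles at the bottom edge. MMP7 is at 8.84 and 7.25 CPM in resistant libraries and 168 and 153 CPM in wild-type libraries, while the flanking gene BIRC2 is between 115 and 128 CPM in resistant libraries and between 123 and 142 CPM in wild-type libraries.

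Other genes of the pathway were read from a list of 54 regulators, of which 53 were found and 42 tested. Of these 17 rose and 9 fell, or 40.5% and 21.4%, where 22.1% of all tested genes rose and 23.2% fell, and the list's median log2 change was 0.32 against 0.003 over all tested genes. Testican genes, which encode matrix proteoglycans, split: SPOCK1 was at 346 and 301 CPM in resistant libraries, against 29.8 and 26.9 CPM in wild-type libraries. SPOCK2 was at 2.07 and 2.49 CPM in resistant libraries, against 8.15 and 7.62 CPM in wild-type libraries. The edgeR log2 changes were 3.51 ± 0.13 for SPOCK1 and -1.79 ± 0.21 for SPOCK2. Their relative SPOCK3 was not called (edgeR adjusted p = 0.119). The membrane inhibitor RECK, named after its values were seen, was at 38.5 and 33.5 CPM in resistant libraries and 39.5 and 42.1 CPM in wild-type libraries, and was not called (edgeR adjusted p = 0.282).

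Of 15 tested transcription factors with known sites in MMP promoters, 8 rose and 5 fell, or 53.3% and 33.3%, against 22.1% and 23.2% of all tested genes. SNAI2, a repressor of epithelial genes, was at 149.6 and 165 CPM in resistant libraries, against 20.4 and 19.8 CPM in wild-type libraries. The epithelial ETS factor ELF3 was at 10.44 and 10.04 CPM in resistant libraries, against 73.1 and 81.7 CPM in wild-type libraries, with 66.1% of its exon bases under other genes. The AP-1 subunit FOS was at 4.10 and 4.45 CPM in resistant libraries, against 21.2 and 12.8 CPM in wild-type libraries. The edgeR log2 changes were 2.97 ± 0.12 for SNAI2, -2.92 ± 0.13 for ELF3 and -1.99 ± 0.23 for FOS. Another AP-1 subunit, FOSL1, named after its values were seen, was at 177 and 242 CPM in resistant libraries, against 60.2 and 69.3 CPM in wild-type libraries. FOSL1 was the only AP-1 subunit that rose among those of the list with reads. Like FOS, the subunits FOSL2, JUND and JUN were called lower. FOSL2 was at 121 and 110 CPM in resistant libraries, against 254 and 275 CPM in wild-type libraries. FOSB and JUNB were at 0 in every library, but every exon base of both lies under another gene, so they are treated as not measured.

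Of 9 tested proteases that can activate members, 3 rose and 2 fell, or 33.3% and 22.2%, against 22.1% and 23.2% of all tested genes, so the share that fell is near that of all genes. ST14, one of those that fell, passed the filter through its wild-type libraries. The proprotein convertase FURIN, named after its values were seen, was at 181 and 168 CPM in resistant libraries, against 114 and 129 CPM in wild-type libraries (log2 change 0.52 ± 0.12, edgeR adjusted p = 0.00383). Without wild-type replicate 1 the log2 change of FURIN was 0.44 (edgeR adjusted p = 0.0634). LRP1, an endocytic receptor that clears MMPs, ADAMTS enzymes and TIMPs and likewise named after its values were seen, was at 203 and 169 CPM in resistant libraries, against 63.9 and 74.2 CPM in wild-type libraries. The integrin chain ITGAV, a docking partner of MMP2 on the cell surface, was at 53.6 and 19.1 CPM in resistant libraries, against 10.6 and 11.3 CPM in wild-type libraries. Its log2 change was 1.73 ± 0.35, but 0.81 without resistant replicate 1, and 82.9% of its exon bases lie under other genes. None of the 5 tested ADAMTS-like and papilin genes was called by edgeR.

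Of 33 substrates of these proteases, 29 were tested, of which 7 rose and 11 fell, with a median log2 change of -0.42 against 0.003 over all tested genes. That is 24.1% higher and 37.9% lower, against 22.1% and 23.2% of all tested genes, so the share that rose is near that of all genes. Among the called substrates, DCN, FBN2, IGFBP4 and VWF were under the filter level of 0.168 CPM in at least 1 library of their lower group, and passed the filter through the group where they are high, so their calls are no support for these shares. The fibrillin FBN2 was at 0.300 and 0.0962 CPM in resistant libraries, against 47.0 and 48.8 CPM in wild-type libraries. The collagen chain COL1A2, a procollagen that ADAMTS2 and its relatives trim, was at 4.29 and 3.27 CPM in resistant libraries, against 17.8 and 20.4 CPM in wild-type libraries. The edgeR log2 changes were -7.97 ± 0.29 for FBN2 and -2.34 ± 0.19 for COL1A2, and that of FBN2 was -8.92 without resistant replicate 1 and -7.30 without resistant replicate 2.

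The small proteoglycans DCN and LUM, the basement membrane protein NID1 and the chondroitin sulfate proteoglycan BCAN rose. NID1 was at 27.4 and 21.0 CPM in resistant libraries, against 6.41 and 6.70 CPM in wild-type libraries. LUM was at 5.82 and 4.31 CPM in resistant libraries, against 0.845 and 0.779 CPM in wild-type libraries. DCN had 2104 and 1817 reads in resistant libraries, against 4 and 1 reads in wild-type libraries, and both wild-type libraries were under the filter level. The edgeR log2 changes were 1.88 ± 0.18 for NID1, 2.64 ± 0.28 for LUM and 8.91 ± 0.39 for DCN, and that of DCN was 10.30 without wild-type replicate 1 and 8.13 without wild-type replicate 2. BCAN had a log2 change of 1.45 ± 0.19, with 97.1% of its exon bases under other genes.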

How the data were processed

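The authors deposited raw read counts for each gene. The submitters' processing notes name the aligner STAR (2.5.1a), the build GRCh38.p7 and, with no version, HTSeq and DESeq. No source used here gives the annotation or the counting settings. A second deposited table, the same counts divided by 1 factor per library, was not used.

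Positions, merged exons and cover by other genes come from GENCODE release 29 (GRCh38). The test was that of edgeR 4.0.16, run in R 4.3.3 (quasi-likelihood F test, TMM factors, filterByExpr with a minimum count of 10 and minimum total of 15, group as the only term), with Benjamini-Hochberg adjustment over all 18602 tested genes. Each SE is the absolute log2 change over the root of F. The steps were tested on simulated data. DESeq2 1.42.0 and limma 3.58.1 (voom) served as alternatives. Figures were drawn with matplotlib 3.10.9.

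The groups come from the sample titles, with 2 libraries each that the series calls biological replicates, and p-values measure the spread between these libraries. Every member with at least 1 CPM in a group is named with each library's value, and lower members are given by their reads so that each is accounted for. From the regulator and substrate lists the rule takes the 6 called genes of each with the largest change and at least 5 CPM in a group. The members and lists were chosen with earlier results of these data known. Protein motifs were not searched.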

Additional observations from a re-analysis of the deposited data

How the results depend on the processing

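Across 11 other settings (DESeq2, limma-voom, RLE factors, library totals only, other filters, a replicate block and each library left out), the count of members called higher ran from 7 to 8 and of those called lower from 9 to 12, and no count of calls moved by over 1.5 times. Of 311 recomputed log2 changes of the 29 tested members, 299 kept their direction and their side of the threshold, 5 lost a call, 3 gained a call and 4 changed sign. The changes of sign were those of TIMP2, at 0.027 with library totals only, of MMP21, at 0.148 without wild-type replicate 2, and of MMP25, at -0.058 without wild-type replicate 2 and -0.301 without resistant replicate 1. With 1 library left out, MMP21 ran from -3.838 to 0.148 and MMP25 from -0.301 to 0.507. Leaving out 1 library ended calls of ADAMTS1, ADAMTS5, ADAMTS13 and MMP17 and gave calls to MMP14 and MMP21, with values beside each result and the cause not tested. The filter at a mean of at least 1 CPM left ADAMTS5 and MMP11 untested, so their calls were not made there. Over all settings the adjusted p ran from 0.000537 to 0.0546 for ADAMTS1, from 0.00284 to 0.164 for ADAMTS5, from 0.000953 to 0.163 for ADAMTS13, from 0.0449 to 0.349 for MMP14, from 0.0119 to 0.935 for MMP21 and from 0.000142 to 0.205 for MMP17. Where a group kept 1 library, its spread was assumed to be that of the other group. Leaving out 1 library gave 3330 to 4022 genes called higher and 3417 to 4159 called lower over all genes, and 7 to 8 members higher and 9 to 12 lower. With a replicate block 8 members were called higher and 11 lower, and the block changed no member's call. The deviations of same-numbered libraries correlated at 0.08 over 18602 genes, so the numbers are not taken to pair the samples. Leaving out the 3 tested members with over 50% of exon bases under other genes, chosen after seeing the data, gave 8 higher and 10 lower. For the 8 untested members with 1 to 19 reads, a difference was not detectable at this depth.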

Other observations

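Several members sit beside a relative in the genome, and these pairs, picked after their values were seen, did not share a pattern. ADAMTS1 (chromosome 21, 26835747 to 26845409) and ADAMTS5 (26917912 to 26966513) are neighbours on the minus strand of chromosome 21, and ADAMTS1 was higher in resistant cells while ADAMTS5 was lower. ADAMTS15 (chromosome 11, 130448974 to 130476641) and ADAMTS8 (130404925 to 130428993) lie on opposite strands of chromosome 11. Both were lower in each resistant library, ADAMTS15 with 244 and 335 reads in resistant libraries against 2292 and 2908 in wild-type libraries, and ADAMTS8 with 2 and 2 reads in resistant libraries against 9 and 6 in wild-type libraries, too few to be tested.

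The substrate of ADAMTS13, von Willebrand factor (VWF), was near absent. VWF had 2 and 1 reads in resistant libraries, against 16 and 33 reads in wild-type libraries. Both resistant libraries were under the filter level of 0.168 CPM, so VWF was tested only through its wild-type libraries, and no test is given.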
